A study of Mus musculus with 36 samples.

Results

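Cohesin is the protein ring that holds sister chromatids together, and the results below follow its 9 core subunit genes through fetal germ cells and supporting cells of the mouse gonad. The genes were those whose names mark them as subunits: the meiotic subunits Rec8, Rad21l, Smc1b and Stag3, and the general subunits Rad21, Smc1a, Smc3, Stag1 and Stag2, which dividing cells of all kinds use. All 9 were among the 19938 genes measured by a probe set with exactly 1 gene symbol, and each was read from the probe set with the highest mean. The data were 36 Affymetrix Mouse Gene 1.0 ST arrays of total RNA, 3 for each of 12 groups: germ or supporting cells, XX or XY, at stages labelled TS13, TS24 and TS34. The labels place TS13 before, TS24 during and TS34 after sexual differentiation. Germ cells came at every stage and in both sexes from mice whose reported gene was Oct4 (Pou5f1) and whose strain was given as progeny of C57BL/6NJ on mixed background. Supporting cells, the somatic lineage of Sertoli and pregranulosa cells, were taken from the Tg(Sry-EGFP)92Ei line, progeny of CD-1. This held for XY at TS13 and for the 3 XX groups. In XY at TS24 and TS34 they came from the Tg(Sox9-cre/ERT2)1Msan/J line, progeny of C57BL/6, a line in which Sox9 sequences drive an inducible Cre. Cell type was thus tied to the mouse line, and the comparison of sexes in supporting cells at TS24 and TS34 was tied to the reporter line. The labels name no agent and no mutation for any group, and gonads were pooled by sex before sorting.

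A cohesin ring is built from an SMC1 and an SMC3 protein closed by a kleisin, and a STAG protein binds the kleisin. In somatic cells the kleisin is RAD21, the SMC1 partner SMC1A, and the STAG protein STAG1 or STAG2. Meiotic cells add REC8 and RAD21L as kleisins, SMC1B as the SMC1 partner and STAG3 as the STAG protein, and SMC3 is shared by all these rings; the meiotic rings form the base of the chromosome axis on which homologues pair. In the fetal ovary germ cells enter meiosis, whereas in the fetal testis they stop dividing without entering it.

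The germ and supporting labels matched their markers on 35 arrays. Ddx4, an RNA helicase of germ cells, lay between 10.48 and 12.09 on germ arrays and between 4.82 and 6.75 on supporting arrays (log2 values), and Wt1, a factor of the supporting lineage, between 7.18 and 8.19 on germ arrays and 10.75 and 11.69 on supporting arrays. The remaining array, the library labelled replicate 3 of XX germ cells at TS24, opposed its label, with Ddx4 at 5.04 and Wt1 at 11.19, and it was left out of every comparison, so that XX germ cells at TS24 rest on 2 arrays. On that array Smc1b read 6.20 and Stag3 7.02, against means of 11.10 and 10.76 on the other 2 arrays of the group and of 6.01 and 7.07 in XX supporting cells at TS24. It was not a plain supporting profile either. The stromal markers Dcn, Tcf21, Pdgfra and Nr2f2 read 10.12, 10.83, 10.60 and 10.47 on it, above the supporting maxima of 7.09, 7.39, 9.86 and 9.64. Col1a1, at 8.17, stayed under its maximum of 8.25. Of the endothelial markers, Kdr, Cdh5 and Tek read 8.33, 7.665 and 6.19, above the supporting maxima of 6.84, 7.32 and 5.61. Pecam1, at 7.19, stayed under its supporting maximum of 7.28. Among supporting arrays, XX replicate 1 at TS24 and XX replicate 1 at TS34 had raised germ markers, with Ddx4 at 6.56 and 6.75. All values are log2, with array medians from 6.412 to 6.841, and they were fitted together with limma. A difference counts as called where limma's adjusted p (Benjamini-Hochberg, all 17571 tested genes) was under 0.05; it is given as log2 ± standard error (SE), with 3 arrays per group apart from XX germ cells at TS24. Nothing in the labels says that the arrays of a group came from different pools; each p-value therefore weighs a difference against the scatter of these samples, part or all of which may be technical.

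In XX germ cells the meiotic subunits Rec8, Smc1b and Stag3 rose between TS13 and TS34 while the kleisin Rad21 fell, and Stag2 rose in both sexes. By TS34 XY germ cells held less of these 3 transcripts than XX germ cells, by 2.02-fold (Stag3) to 5.29-fold (Rec8). Smc1b and Stag3 were already high in germ cells of both sexes at TS13, and differed from supporting cells throughout. Rec8 was not: it was within 1 log2 unit of its supporting-cell level in every group except XX germ cells at TS34. In XX germ cells 5 of the 8 members tested were called between TS13 and TS34, 4 of them higher, where 17.5% of all genes tested were called and 6.64% were called higher. The split of all called genes into higher and lower moved with the scaling of the arrays, from 1166 and 1904 as deposited to 2027 and 1741 after quantile normalization; the median over all genes went from -0.14 to -0.06.

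Rec8, the meiotic kleisin that holds sister centromeres together through the first meiotic division, read 6.53, 6.45 and 6.33 on the 3 XX germ arrays at TS13. The 2 arrays at TS24 read 6.91 and 7.87, and the 3 at TS34 read 8.98, 9.10 and 9.15. The stages did not overlap, and the arrays at TS34 lay close together. In XY germ cells Rec8 read 6.66, 6.18 and 6.49 at TS13, then 6.24, 6.11 and 6.47 at TS24, and 6.48, 6.65 and 6.88 at TS34, so that every XY array lay below both XX arrays at TS24. The XX rise from TS13 to TS34 was 2.64 ± 0.23 (6.24-fold, adjusted p = 1.39e-12), rank 28 among the 17571 genes tested. Of that rise, 1.69 ± 0.26 fell between TS24 and TS34 (adjusted p = 1.2e-05), where 8.87% of genes were called. The first step, 0.95 ± 0.26, was not called (adjusted p = 0.051), and 1.21% of genes were; without replicate 1 at TS24 it was 1.43 (adjusted p = 0.00784), and without replicate 2 it was 0.47 (adjusted p = 0.61). In XY the change from TS13 to TS34 was 0.23 ± 0.23 (adjusted p = 0.746).

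**Figure D1:**
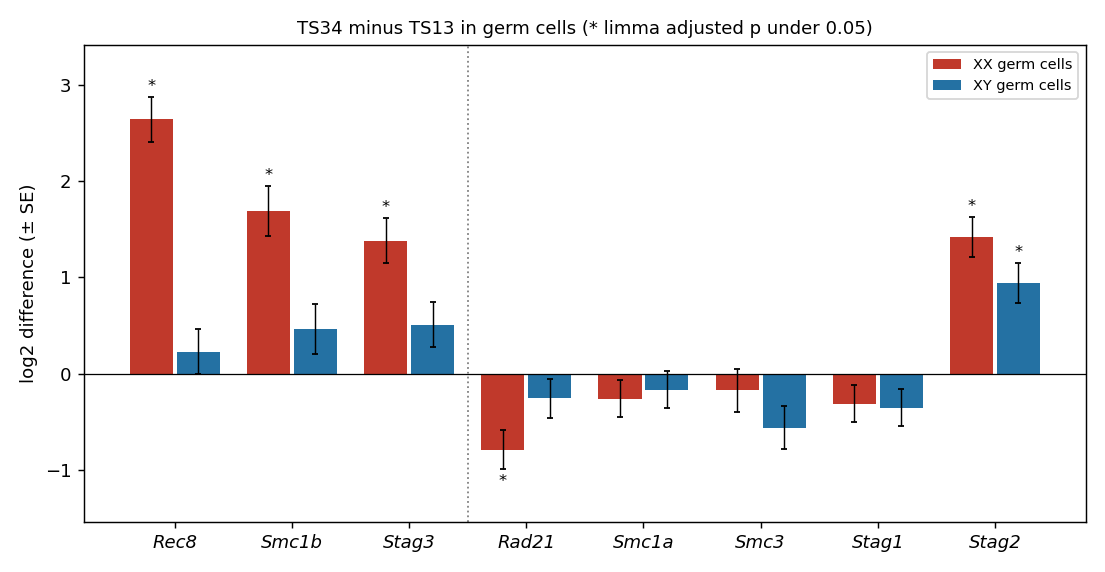
Change from TS13 to TS34 in germ cells for the 8 tested cohesin subunits (bars: log2 difference of group means of 3 arrays; error bars: SE; star: limma adjusted p under 0.05; the dotted line parts meiotic from general subunits). Rec8, Smc1b and Stag3 rise by 2.64, 1.69 and 1.38 in XX (red) and are not called in XY (blue), Stag2 rises in both, and Rad21 falls in XX.

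Rad21l, the second meiotic kleisin, was dim. The probe set used reached above the lowest 25 percent of values on 2 of 35 arrays, both of them germ cells, fewer than the 3 the filter on low values asks for, and the gene was therefore not tested. A further probe set, with a lower mean, did so on 3. In XX germ cells it read 4.43, 4.51 and 4.76 at TS13, 5.37 and 4.50 at TS24, and 6.32, 5.25 and 7.43 at TS34. The 3 arrays at TS34 lay far apart, and the lowest of them was below replicate 1 at TS24. XY germ arrays lay between 4.47 and 4.94 at all stages and supporting arrays between 4.10 and 4.65. The further probe set read 6.74, 6.15 and 7.18 in XX germ cells at TS34. In a fit without the filter the XX rise from TS13 to TS34 was 1.77 ± 0.26 (adjusted p = 9.28e-07), and at TS34 XY minus XX was -1.57 ± 0.26 (adjusted p = 1.39e-05). Dim values can be compressed toward the background of the array, and whether this changed the size of these differences was not tested.

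Smc1b encodes the meiotic partner of SMC3. It read 10.51, 10.21 and 10.02 in XX germ cells at TS13, then 11.05 and 11.14 at TS24, and 12.43, 11.50 and 11.88 at TS34. In XY germ cells it read 9.95, 9.76 and 10.21 at TS13, 10.71, 11.12 and 10.75 at TS24, and 10.22, 10.52 and 10.57 at TS34. The XX arrays at TS34 lay above every other germ array, whereas the XY arrays at TS34 lay below those at TS24. From TS13 to TS34 the gene rose by 1.69 ± 0.26 in XX (3.23-fold, adjusted p = 1.79e-06). The XY difference over the same interval was 0.47 ± 0.26 (adjusted p = 0.367), where 8.13% of genes were called. Its XX step from TS24 to TS34 was 0.84 ± 0.29 (adjusted p = 0.0547), and it was called after median centring (0.98, adjusted p = 0.0178), after quantile normalization (1.10, adjusted p = 0.00667) or without replicate 2 at TS34 (1.06, adjusted p = 0.0309). Its XY step from TS13 to TS24 was 0.89 ± 0.26 (adjusted p = 0.069), close to the XX step of 0.85 ± 0.29 (adjusted p = 0.14), and neither was called; 1.5% of genes were called in that XY step.

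Stag3, the meiotic STAG protein, is needed for meiotic rings to be stable. It read 10.34, 10.37 and 10.00 in XX germ cells at TS13, then 10.85 and 10.67 at TS24, and 11.64, 11.61 and 11.61 at TS34. XY germ arrays read 10.37, 9.95 and 9.95 at TS13, 10.19, 10.94 and 10.62 at TS24, and 10.47, 10.63 and 10.71 at TS34. All 3 XX arrays at TS34 were above every XY array. The rise from TS13 to TS34 was 1.38 ± 0.23 in XX (2.61-fold, adjusted p = 1.39e-05), and the XY difference was 0.51 ± 0.23 (adjusted p = 0.225), or 0.64 (adjusted p = 0.0473) after quantile normalization. The XX step from TS24 to TS34, 0.86 ± 0.26 (adjusted p = 0.03), kept its direction but lost its call without replicate 1 or 2 at TS24 or replicate 2 or 3 at TS34 (0.77 to 0.95, adjusted p from 0.072 to 0.177).

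The promoters of these 3 genes are shown because Smc1b and Stag3 followed each other over the 12 group means (r = 0.99 as a description over 12 points, most of which is the gap between the cell types), and Rec8 followed neither (r = 0.29 with both). The sequences are from RefSeq's mouse annotation, build GRCm38.p6, which held a promoter for 7 of the 9 members; none was listed for Rad21 and Stag2. Each window runs from 250 bases before the gene's listed start to 50 after it. Capitals mark 4 motifs searched on both strands and chosen after the sequences were seen: the E-box CACGTG, the E2F-like TTCCCGC, the CGCG element TCTCGCGA, and CCAAT, which reads ATTGG on the other strand. The stretch for Smc1b, on the minus strand, is the 250 bases before its start, chr15:85131958-85132207. That for Stag3, on the plus strand at chr5:138280259-138280512, includes the 4 bases after its start that complete a motif, and it lies within the annotated gene, which spans chr5:138272514-138312397. That for Rec8, on the plus strand, is the part before the annotated gene's outer edge, chr14:55617916-55618001.
Smc1b: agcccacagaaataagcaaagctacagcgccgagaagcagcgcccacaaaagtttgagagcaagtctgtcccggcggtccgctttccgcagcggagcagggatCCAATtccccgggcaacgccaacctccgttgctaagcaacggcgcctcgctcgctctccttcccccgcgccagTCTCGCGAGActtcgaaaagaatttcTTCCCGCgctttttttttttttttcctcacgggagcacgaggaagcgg
Stag3: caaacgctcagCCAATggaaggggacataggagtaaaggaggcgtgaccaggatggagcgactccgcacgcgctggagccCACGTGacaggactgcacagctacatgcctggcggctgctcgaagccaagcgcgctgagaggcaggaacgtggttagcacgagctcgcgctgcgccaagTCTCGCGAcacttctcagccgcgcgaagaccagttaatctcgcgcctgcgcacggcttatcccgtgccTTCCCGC
Rec8: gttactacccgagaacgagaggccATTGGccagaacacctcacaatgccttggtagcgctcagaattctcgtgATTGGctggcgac
In the full window of 300 bases, Smc1b held TTCCCGC once, TCTCGCGA on both strands of 1 overlapping site, and CCAAT once. Stag3 held each of the 4 motifs once. Rec8 held CCAAT 3 times and none of the other 3 motifs. Over 32851 promoters of the same length, 37.4% held CCAAT, 7.15% the E-box, 4.6% TTCCCGC and 0.995% TCTCGCGA. Among the general subunits, Smc1a and Stag1 held TTCCCGC and CCAAT once each, and Smc3 held none of the 4; the window of Rad21l held CCAAT alone. A match is a description of the letters, and no match says only that these letters are not in this window.

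Among the general subunits, the kleisin Rad21, which closes the ring of dividing cells, fell in XX germ cells. It read 12.96, 12.20 and 12.61 at TS13, 12.91 and 12.59 at TS24, and 12.24, 11.70 and 11.46 at TS34. The highest array at TS34 lay just above the lowest at TS13, so the groups overlapped. The fall from TS13 to TS34 was -0.79 ± 0.20 (adjusted p = 0.0037), against a median of -0.14 over all genes tested. It lost its call without XX replicate 1 at TS13 (-0.60, adjusted p = 0.061) or replicate 3 at TS34 (-0.62, adjusted p = 0.064). The step from TS24 to TS34, -0.95 ± 0.23 (adjusted p = 0.00503), lost its call without replicate 1 at TS24 (-0.79, adjusted p = 0.0881) or replicate 3 at TS34 (-0.78, adjusted p = 0.0707). XY germ cells read 12.63, 12.55 and 12.14 at TS13 and 12.01, 12.17 and 12.37 at TS34, a difference of -0.25 ± 0.20 (adjusted p = 0.643).

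Stag2, the STAG partner of most somatic rings, is encoded on the X chromosome. It read 7.63, 7.44 and 7.39 in XX germ cells at TS13, then 8.13 and 8.10 at TS24, and 9.04, 8.71 and 8.98 at TS34. In XY germ cells it read 8.30, 7.54 and 8.22, then 8.39, 8.18 and 8.39, then 9.09, 8.84 and 8.96. In both sexes every array at TS34 lay above every array at the earlier stages. The rise from TS13 to TS34 was 1.42 ± 0.20 in XX (2.67-fold, adjusted p = 6.21e-07) and 0.94 ± 0.20 in XY (1.92-fold, adjusted p = 0.000999). The rises differed by -0.48 (XY minus XX), which was not called. In XX the step from TS24 to TS34 was 0.79 ± 0.23 (adjusted p = 0.0218), and it lost its call without replicate 1 or 2 at TS24 or replicate 3 at TS34 (0.75 to 0.80, adjusted p from 0.0845 to 0.122). The same step in XY was 0.65 ± 0.20 (adjusted p = 0.0794), not called, where 2.73% of genes were; it was called after median centring or quantile normalization (both 0.73, adjusted p = 0.0152 and 0.012). Between TS13 and TS34 Stag2 was the sole member called in XY germ cells, where 8.13% of genes were called.

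The other 3 general subunits moved less. Smc3, the subunit common to every ring, had germ group means between 12.02 and 12.58. Smc1a, its somatic partner and another X-linked gene, had means between 10.95 and 11.39, and Stag1, a STAG protein needed for cohesion at telomeres, between 10.51 and 11.18. None of the 3 was called in any of the 6 stage comparisons of germ cells, in which 1.21% to 17.5% of genes were called. Over the 12 groups Stag1 and Smc3 tracked each other (r = 0.94), while Stag2 ran opposite to each of the other general subunits (r from -0.88 to -0.77), again as a description of 12 means that the 2 cell types dominate.

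The proliferation markers Mki67, Top2a and Bub1, 3 of the 4 listed and measured, averaged 10.97 to 11.29 on the XX germ arrays of TS13 and 11.29 to 11.48 on those of TS34. Erythroid markers, 3 of 4 measured, averaged 7.93 to 8.67 at TS13 and 6.48 to 7.08 at TS34 in XX germ cells, and 7.88 to 8.61 and 6.69 to 7.37 in XY. The 4 endothelial markers averaged 7.08 to 7.23 at TS13 and 6.39 to 6.84 at TS34 in XX, and 6.90 to 7.25 and 6.16 to 6.60 in XY. Of the 4, Pecam1 was itself high on germ arrays, at 8.91 to 11.10 against 6.29 to 7.28 on supporting arrays. On germ arrays Cdh5 read 5.73 to 7.27, Kdr 5.23 to 6.25 and Tek 4.69 to 5.88. The part of all these markers in the stage differences was not tested. In sorted bulk cells, fewer cells of a type and less RNA per cell cannot be told apart.

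Whether XX and XY germ cells differed in their cohesin subunits was compared at each stage. At TS13 none of the 8 tested members was called (0.0285% of genes were; 554 genes had an unadjusted p under 0.05), and Stag2 showed the widest gap, 0.53 ± 0.20 higher in XY (adjusted p = 1). At TS24 Rec8 alone was called, where 1.96% of genes were: XY minus XX was -1.11 ± 0.26 (adjusted p = 0.011). That call was lost without XX replicate 2 (-0.63, adjusted p = 0.525) or XY replicate 2 (-1.03, adjusted p = 0.0763), the former leaving 1 XX array that is assumed to vary like the other groups. At TS34, 3 of 8 members were called, where 10.5% of genes were, all lower in XY, where 4.46% of genes were. Rec8 differed by -2.40 ± 0.23 (5.29-fold, adjusted p = 3.4e-11), Smc1b by -1.5 ± 0.26 (2.82-fold, adjusted p = 2.79e-05) and Stag3 by -1.01 ± 0.23 (2.02-fold, adjusted p = 0.00186). For these 3 genes the XX and XY arrays did not overlap, a trait that was not counted over all genes. Each of the 3 calls held without any 1 of the 6 arrays. This comparison shares its XX arrays with the stage comparisons of XX germ cells above, which in turn share arrays among themselves.

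**Figure D2:**
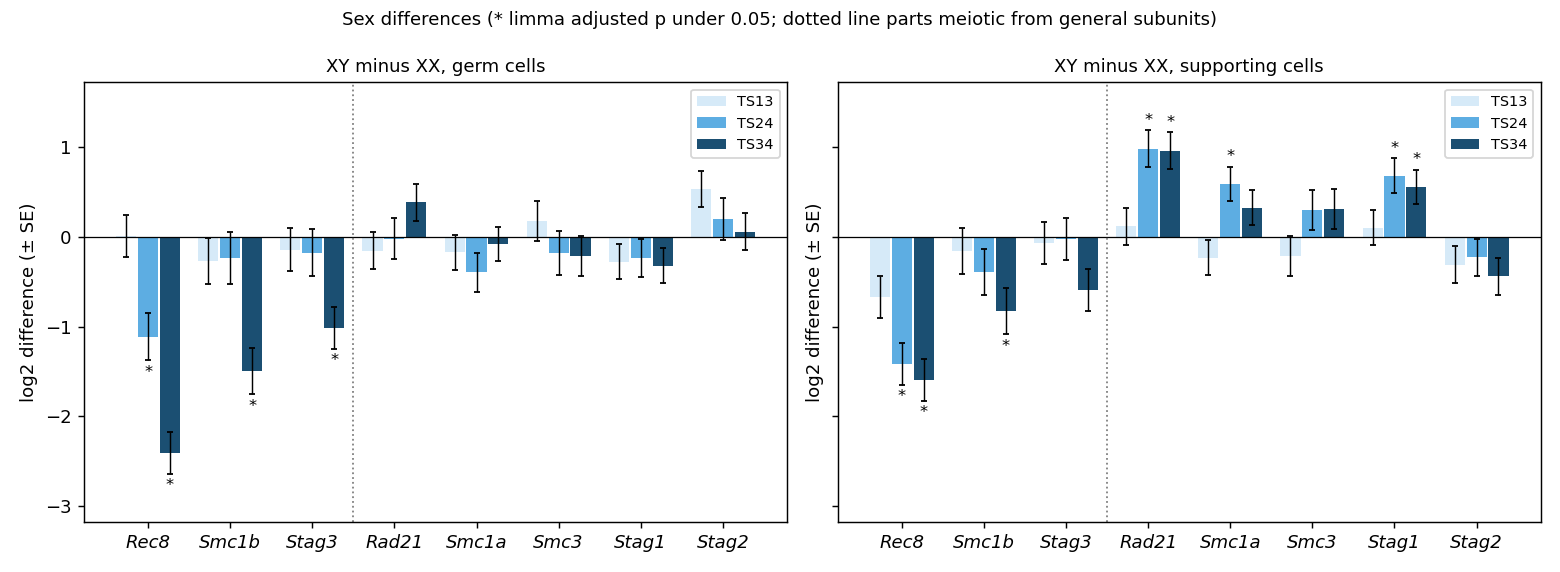
XY minus XX difference for the 8 tested cohesin subunits in germ cells (left) and supporting cells (right) at TS13, TS24 and TS34 (bars: log2 difference; error bars: SE; star: limma adjusted p under 0.05; the dotted line parts meiotic from general subunits). In germ cells at TS34 Rec8 is at -2.40, Smc1b at -1.5 and Stag3 at -1.01. No general subunit is called there, where 10.5% of genes are.

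None of the 5 general subunits was called between the sexes of germ cells at TS34, where 10.5% of genes were called. Rad21 was 0.38 ± 0.20 higher in XY (95% interval -0.03 to 0.79, adjusted p = 0.282) and Stag2 0.06 ± 0.20 (-0.35 to 0.47). Smc1a, Smc3 and Stag1 were -0.08, -0.21 and -0.32. Whether the gap between the sexes had changed was tested by subtracting the difference at TS13 from that at TS34, and 3.69% of genes were called. Rec8 was called at -2.41 ± 0.33 (adjusted p = 1.5e-06), and Smc1b at -1.22 ± 0.36 (adjusted p = 0.043). Stag3 was at -0.87 ± 0.33 (adjusted p = 0.16). The call on Smc1b was close to the threshold: it was lost, at -1.29 to -0.98 (adjusted p from 0.055 to 0.13), without XX replicate 2 or 3 or XY replicate 1 or 3 at TS13, without XX replicate 1 or 3 at TS34, or without any of the 3 XY arrays at TS34.

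Between paralogues, the level of each meiotic subunit relative to its somatic counterpart was followed as a change from XX germ cells at TS13, since levels of different probe sets cannot be set against each other. Rec8 minus Rad21 changed by 3.43 in XX germ cells at TS34 and by 0.64 in XY. Smc1b minus Smc1a changed by 1.95 in XX and 0.53 in XY, and Stag3 minus Stag1 by 1.69 and 1.00. Against Stag2, which rose in both sexes, Stag3 changed by -0.04 in XX and -1.11 in XY. These changes of log2 ratios are descriptions of the group means and were not tested.

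Germ cells and supporting cells were then compared. Averaged over stages and sexes, 7 of the 8 tested members were called, where 53.2% of genes were called, 32.9% higher in germ cells and 20.3% lower. These shares stood for 5785 and 3560 genes, which became 4870 and 4730 after median centring and 4365 and 5274 after quantile normalization, while the median over all genes went from 0.08 to -0.01 and -0.04. Smc1b was 4.96 ± 0.11 higher in germ cells (31.1-fold, adjusted p = 2.51e-39), rank 10 of the 17571, and Stag3 3.64 ± 0.10 higher (12.5-fold, adjusted p = 3.88e-35). Supporting arrays read 5.28 to 6.98 for Smc1b and 6.21 to 7.83 for Stag3, and no germ array of either gene came below 9.76. Smc3, Stag1, Rad21 and Smc1a were higher in germ cells by 0.94 ± 0.09, 0.83 ± 0.08, 0.81 ± 0.09 and 0.52 ± 0.08. Stag2 was lower by -1.12 ± 0.09 (2.18-fold, adjusted p = 1.12e-16), the sole member lower in germ cells. Rec8 differed by 0.20 ± 0.10 (adjusted p = 0.076). Mki67, a marker of cycling cells, was 2.39 ± 0.10 higher in germ cells, and its part in these differences was not tested.

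**Figure D3:**
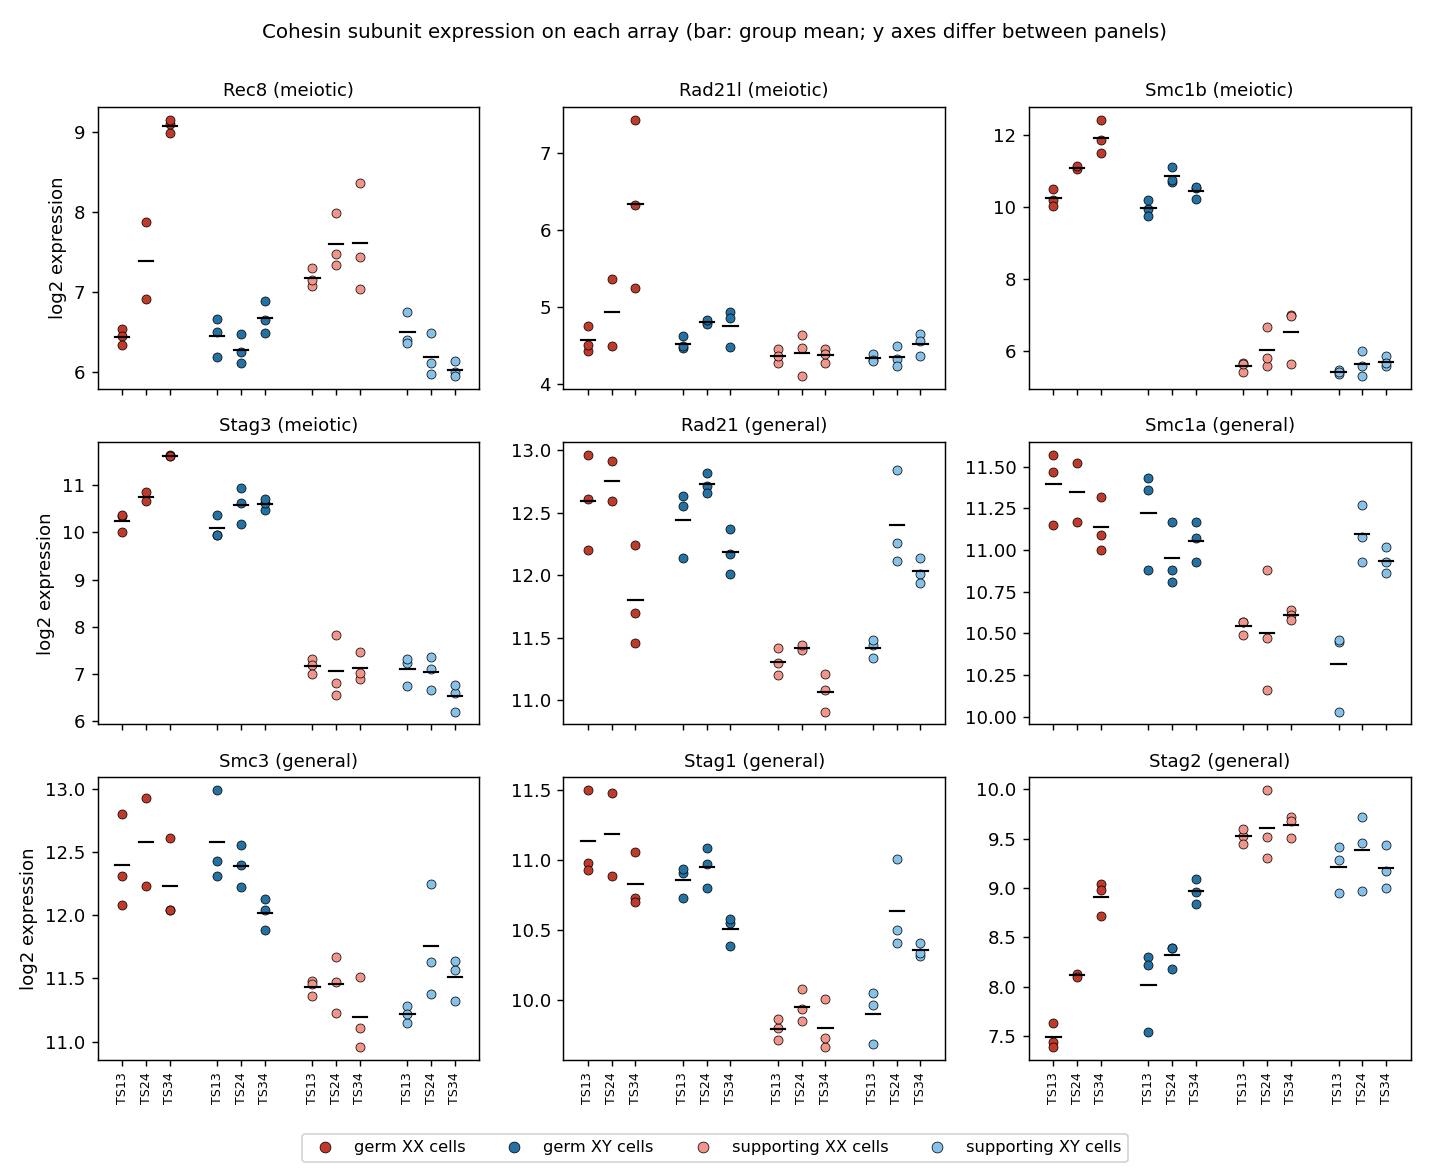
Log2 expression of the 9 cohesin subunits on each of the 35 arrays used, by cell type, sex and stage (points: single arrays; bars: group means of 3 arrays, or 2 for XX germ cells at TS24; y axes differ between panels). Smc1b and Stag3 split by cell type with no overlap, while Rec8 is highest on the 3 XX germ arrays at TS34 and higher on XX than on XY supporting arrays.

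The average for Rec8 covered differences of both signs, which appeared when each pair of groups was compared (pairs chosen after the averages were seen). In XX at TS13, Rec8 was -0.73 ± 0.23 in germ minus supporting cells (adjusted p = 0.011), where 30.4% of genes were called, and this call was lost without supporting replicate 3 (-0.67, adjusted p = 0.0515). In XX at TS24 it was -0.21 ± 0.26 (adjusted p = 0.62), and 27.9% of genes were called. In XX at TS34 it was 1.47 ± 0.23 (2.77-fold, adjusted p = 9.5e-07), where 30.1% were called, and the call held without any 1 of the 6 arrays. In XY it was -0.05 at TS13 and 0.09 at TS24, and 0.65 ± 0.23 at TS34 (adjusted p = 0.027), where 32.4%, 31.9% and 28.9% of genes were called; the last lost its call without germ replicate 2 or 3 or supporting replicate 1 or 2 (0.55 to 0.66, adjusted p from 0.0576 to 0.132), after median centring (0.52) and after quantile normalization (0.49). These pairs share no array between stages, and a change of the gap with stage was not tested.

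Of all genes tested, 30.4%, 27.9% and 30.1% were called between germ and supporting cells in XX at TS13, TS24 and TS34. In XY the shares were 32.4%, 31.9% and 28.9%. The general subunits also varied with the pair. In XX all 5 were called at each stage, although at TS24 Smc1a and Smc3 lost their calls without germ replicate 1 (0.67 and 0.77, adjusted p = 0.0681 and 0.0609). At TS34 in XX the differences were 1.03 for Smc3, 1.02 for Stag1, 0.73 for Rad21, 0.53 for Smc1a and -0.73 for Stag2. Of those, Smc1a at TS34 lost its call without germ replicate 2 or 3 or any of the 3 supporting arrays (0.44 to 0.55, adjusted p from 0.0553 to 0.149) or after quantile normalization (0.34, adjusted p = 0.126), and Rad21 without germ replicate 1 (0.51, adjusted p = 0.0689). In XY at TS13 all 5 were called too, from 0.91 for Smc1a to 1.36 for Smc3, and -1.19 for Stag2. At TS24 in XY Stag2, at -1.06 ± 0.20, and Smc3, at 0.64 ± 0.22 (adjusted p = 0.021), were called, while Rad21 stood at 0.33, Stag1 at 0.31 and Smc1a at -0.14. Smc3 lost that call without germ replicate 1 or supporting replicate 2 or 3 (0.46 to 0.58, adjusted p from 0.076 to 0.161). At TS34 in XY none was called: Rad21 stood at 0.16, Smc1a at 0.12, Smc3 at 0.51, Stag1 at 0.15 and Stag2 at -0.24. The XY supporting cells of TS13 and of TS34 came from different reporter lines.

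**Figure D4:**
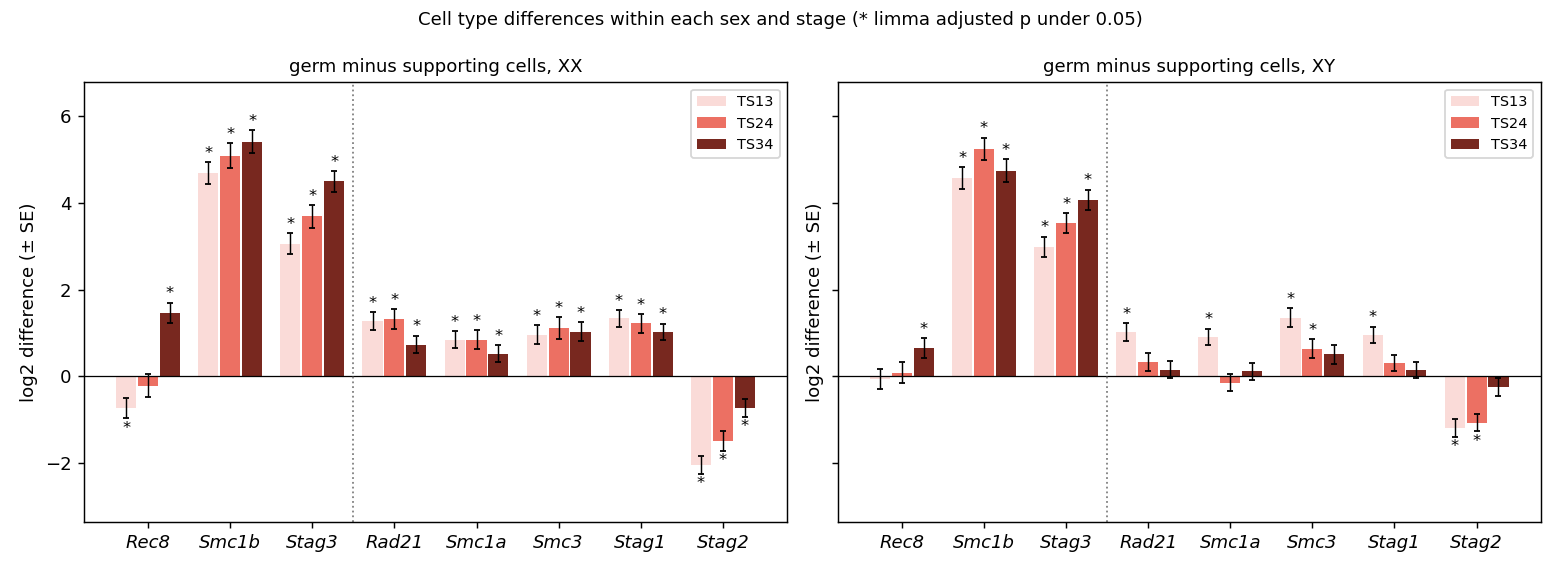
Germ minus supporting difference for the 8 tested cohesin subunits in XX (left) and XY (right) at each stage (bars: log2 difference; error bars: SE; star: limma adjusted p under 0.05; the dotted line parts meiotic from general subunits). Smc1b and Stag3 are called in all 6 pairs, Rec8 runs from -0.73 to 1.47, and none of the general subunits is called in XY at TS34.

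Within supporting cells, Rec8 was higher in XX than in XY. XX arrays read 7.07, 7.14 and 7.30 at TS13, 7.98, 7.34 and 7.47 at TS24, and 7.03, 8.36 and 7.43 at TS34. XY arrays read 6.39, 6.75 and 6.36, then 5.97, 6.48 and 6.11, then 5.99, 5.94 and 6.13. The sexes did not overlap at any stage. At TS13, where both sexes carried the same reporter line, XY minus XX was -0.67 ± 0.23 (adjusted p = 0.12), not called, and 3.77% of genes were; none of the other 7 tested members was called there either, at -0.31 (Stag2) to 0.12 (Rad21). At TS24 it was -1.41 ± 0.23 (adjusted p = 4.6e-06), where 15.3% were called, and at TS34 -1.59 ± 0.23 (adjusted p = 4.28e-07), where 14% were; at these stages sex and reporter line cannot be told apart. The difference held its call at TS24 and TS34 without any 1 array, and without the 2 XX arrays whose germ markers were raised.

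Rad21 went the other way in supporting cells. It read 11.42, 11.40 and 11.44 in XX at TS24 against 12.84, 12.11 and 12.26 in XY, and 11.21, 10.91 and 11.08 in XX at TS34 against 12.01, 11.94 and 12.14 in XY. No XX array reached an XY array at either stage. XY minus XX was 0.98 ± 0.20 at TS24 (adjusted p = 0.00024) and 0.96 ± 0.20 at TS34 (adjusted p = 0.00035). Stag1 was higher in XY by 0.68 ± 0.19 (adjusted p = 0.0083) at TS24 and 0.56 ± 0.19 (adjusted p = 0.043) at TS34, and Smc1a by 0.59 ± 0.19 (adjusted p = 0.027) at TS24. These smaller calls were lost when single arrays were left out. Stag1 lost its call at TS24 without XY replicate 1 (0.50, adjusted p = 0.119) and at TS34 without XX replicate 2 or 3 or any XY array (0.49 to 0.57, adjusted p from 0.0934 to 0.179), and Smc1a without XX replicate 2 or 3 or XY replicate 2 or 3 (0.42 to 0.60, adjusted p from 0.0605 to 0.208). In the same comparisons Mki67 was 3.17 ± 0.23 and 3.24 ± 0.23 higher in XY, and the 3 measured proliferation markers averaged 6.59 to 7.89 in XX against 10.05 to 10.37 in XY at TS24, and 6.45 to 6.83 against 9.78 to 9.88 at TS34. Their part in the cohesin differences was not tested.

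In supporting cells Smc1b was higher on some XX arrays than on the XY arrays. It read 5.65, 5.40 and 5.63 in XX at TS13, 6.65, 5.57 and 5.79 at TS24, and 6.98, 6.97 and 5.62 at TS34, against 5.28 to 6.00 on all XY arrays. The XX difference between TS13 and TS34 was 0.96 ± 0.26 (adjusted p = 0.013), where 4.64% of genes were called, and XY minus XX at TS34 was -0.83 ± 0.26 (adjusted p = 0.02). The 5 germ markers averaged 5.06 to 5.27 on the XX arrays at TS13 and 5.48 to 6.45 at TS34. Without the 2 XX arrays of raised germ markers the values were 0.74 (adjusted p = 0.147) and -0.60 (adjusted p = 0.153). Of those 2, only replicate 1 at TS34 belongs to the groups compared here. Leaving out replicate 2 at TS34 instead, not among those 2, also gave 0.74 (adjusted p = 0.192) and -0.60 (adjusted p = 0.205). The part of germ cells in these values was not tested. The rise in XX lost its call without replicate 2 at TS13 or replicate 1 or 2 at TS34 (0.74 to 0.88, adjusted p from 0.0828 to 0.193), and the sex difference without XX replicate 1 or 2 or XY replicate 1 or 3 (-0.81 to -0.60, adjusted p from 0.0657 to 0.205). In XY supporting cells Rad21 and Smc1a were 0.61 ± 0.20 (adjusted p = 0.046) and 0.62 ± 0.19 (adjusted p = 0.027) higher at TS34 than at TS13, across a change of reporter line, where 10% of genes were called. Rad21 lost that call without any 1 of the 6 arrays (0.55 to 0.65, adjusted p from 0.0779 to 0.189) and Smc1a without replicate 3 at TS13 or any array at TS34 (0.48 to 0.66, adjusted p from 0.061 to 0.24). Between the same 2 groups of XY arrays the 3 proliferation markers averaged 8.06 to 8.60 at TS13 and 9.78 to 9.88 at TS34, and the steroidogenic markers 5.95 to 6.16 and 6.91 to 7.21. Their part in these differences was not tested.

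The factors that load, acetylate, release, protect and cut cohesin were read beside its subunits. Of 14 such genes, 13 were tested, Meikin having failed the filter. Between TS13 and TS34 in XX germ cells 2 of the 13 were called, where 17.5% of all genes were, and both were lower: Cdca5, the sororin that keeps acetylated rings on replicated DNA, by -1.83 ± 0.29, and the centromere protector Sgo1 by -1.04 ± 0.25. The median of the 13 was -0.04, against -0.14 over all genes, and it was 0.01 after median centring and 0.13 after quantile normalization, with Hdac8 and the separase Espl1 called higher after either rescaling and the loader Nipbl after quantile normalization. Over the same interval in XY 3 of the 13 were called, where 8.13% of genes were, all lower: Cdca5 by -1.13, the S-phase acetyltransferase Esco2 by -1.07 and Sgo1 by -0.77. From TS24 to TS34 in XY 4 of the 13 were called, where 2.73% of genes were: the deacetylase Hdac8 was higher by 0.93, and Cdca5, Esco2 and the ring-associated Pds5a were lower by -1.04, -0.98 and -0.69. After quantile normalization, Hdac8 and Esco2 alone kept their calls in that step. At TS34 Cdca5 was 0.91 ± 0.29 higher (adjusted p = 0.0296) and Esco2 -0.91 ± 0.24 lower in XY than in XX (adjusted p = 0.00726). Averaged over stages and sexes, 11 of the 13 were higher in germ than in supporting cells (10 after either rescaling) and Hdac8 was lower. Of all genes, 53.2% were called there, 32.9% higher in germ cells and 20.3% lower. The median of the 13 was 0.79 against 0.08 over all genes. Esco2, at 3.51, and Sgo2a, a second protector, at 3.36, differed by over 3 log2 units. In supporting cells at TS24, where 15.3% of genes were called, Cdca5, Esco2, Espl1, Sgo1 and Sgo2a were higher in XY, Sgo2a by 3.06 ± 0.26, and Esco1 was lower.

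Condensin and the SMC5/6 complex, which are built from other SMC proteins, were followed for comparison. All 8 condensin genes were higher in germ than in supporting cells, where 32.9% of all genes were, with a median of 1.76, led by Ncapg at 3.51 ± 0.11. All 8 were also higher in XY than in XX supporting cells at TS24 (median 1.65), where 15.3% of genes were called, 1712 of them higher in XY and 980 lower. In XX germ cells 3 of the 8, Ncapd2, Ncapd3 and Ncaph, were lower at TS34 than at TS13, where 17.5% of genes were called and 1904 were lower, at -0.99 for Ncapd2, -0.98 for Ncaph and -0.65 for Ncapd3, the last not called after quantile normalization. Of the 7 SMC5/6 genes, Smc6 and Nsmce4a were higher in germ cells, by 0.92 and 0.83, while the median of the 7 changed sign with the scaling, from 0.16 to -0.07 after quantile normalization. Eid3, a subunit of that complex, fell by 2.96 between TS13 and TS34 in XY germ cells (adjusted p = 1.01e-07), and was -1.44 ± 0.39 lower in XY than in XX at TS34.

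The genes of meiotic entry and of the chromosome axis, on which the meiotic rings sit, gave the setting; 5 of the 6 listed were measured. All 5 rose in XX germ cells between TS13 and TS34, where 6.64% of genes were called higher. Stra8, the retinoic acid-induced factor of meiotic entry, rose by 5.06 ± 0.22, the synaptonemal complex genes Sycp1, Sycp2 and Sycp3 by 4.17, 4.07 and 1.57, and the axis gene Hormad1 by 1.63. In XY germ cells, where 8.13% of genes were called, Sycp1, Sycp2 and Sycp3 also rose, by 3.04, 3.54 and 1.2. At TS34 Stra8, Hormad1, Sycp3 and Sycp1 were lower in XY by -4.65, -1.45, -1.09 and -1.01, where 4.46% of genes were called lower. Stra8 read 5.22, 4.92 and 5.35 in XX germ cells at TS13, then 8.06 and 6.88 at TS24, and 10.39, 10.06 and 10.21 at TS34. Replicate 2 of XX at TS24 was thus the lower array for Stra8 and the higher for Rec8.

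The genes whose group means ran most like each meiotic subunit over the 12 groups were different for Rec8. For Smc1b they were Hormad1 (r = 0.9976), Map7d2 (r = 0.9969) and Fmr1nb (r = 0.993), and for Stag3 the same 3 genes, at 0.9957 for Map7d2, 0.9955 for Fmr1nb and 0.9944 for Hormad1. For Rec8 they were 4930505O20Rik (r = 0.9238), Ddb2 (r = 0.9173) and Dlgap2 (r = 0.9165). The spread of the 12 group means was 6.53 for Smc1b, 5.08 for Stag3, 3.06 for Rec8, 2.15 for Stag2 and 2.0 for Rad21l, against a median of 0.855 over all genes tested. It was 1.68 for Rad21, 1.39 for Stag1, 1.38 for Smc3 and 1.08 for Smc1a. In germ cells alone Rec8 spanned 2.80, Smc1b 1.96, Rad21l 1.81, Stag3 1.52 and Stag2 1.48, against a median of 0.53 over all genes tested. Rec8, behind Smc1b and Stag3 over all 12 groups, thus had the widest span of these among germ cells.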

How the data were processed

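Deposited values were log2 expression per probe set, made by the authors with RMA per the submitters' processing notes (version and software: not given in the sources used here). Of 35557 probe sets, 21789 had 1 gene symbol, 1621 several and 12147 were unlisted in the platform annotation; symbols were updated through Entrez identifiers to RefSeq's GRCm38.p6. Each gene was read from its brightest probe set by mean. The test kept 17571 genes that stood above the lowest 25 percent of values on 3 or more arrays and removed 2367, Rad21l among them. With limma 3.58.1 in R 4.3.3, 1 mean was fitted per group on 35 arrays (residual degrees of freedom 23, prior 25.94), with two-sided Benjamini-Hochberg adjustment over all genes tested in each comparison. There were 16 comparisons, and 6 pairs of germ and supporting cells were added later. The number of arrays limits the precision: the median SE of 3 against 3 arrays was 0.211. The procedure was tested on simulated data. Same-numbered arrays did not deviate together (median correlation -0.0067, and 0.0032 for different numbers), so the numbers were not treated as pairs.

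The rule for named genes took all 9 members; of the other lists at most 6 called genes per comparison, those of largest difference; and the 3 genes most alike to each meiotic subunit. The members and lists were chosen with earlier results of these data known. The other settings were all 36 arrays, no filter, a filter at the 50th percentile, the mean over probe sets, median centring, quantile normalization, the groups compared alone, an intensity trend, a replicate block and leaving out each array. Interstitial samples were not analysed here. Markers of stromal, macrophage and mesonephric cells were also read, with list means per array of 6.21 to 7.79, 5.64 to 6.29 and 6.41 to 7.13. Steroidogenic markers averaged 6.91 to 7.21 in XY supporting cells at TS34 and 5.00 to 6.42 in all other groups.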

Additional observations from a re-analysis of the deposited data

Results flagged for a closer look

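The difference between XY and XX germ cells was called as changed from TS13 to TS34 in 2 of the 8 tested subunits. This was a test of the change itself, in which 3.69% of all genes were called. For Rec8 the change was -2.41 ± 0.33 (limma, adjusted p = 1.5e-06), with XY minus XX at 0.01 at TS13 and -2.40 at TS34. For Smc1b the change was -1.22 ± 0.36 (limma, adjusted p = 0.043), with -0.27 and -1.5 at the 2 stages. The call on Smc1b was lost in 9 of the 12 fits that each left out 1 array (limma, adjusted p up to 0.13). It was also lost with all 36 arrays (limma, adjusted p = 0.644). Rad21l, not tested after the filter on low values, changed by -1.53 ± 0.37 in a fit without that filter (limma, adjusted p = 0.0081). With the mean over its probe sets the change was -1.89. In that fit Rad21l passed the filter only through the XX germ arrays at TS34, the group where it is high, so its p-value is no support. Groups of 3 arrays are too small to test a single array for standing apart.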

How the results depend on the processing

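The fits that left out a single array are not in the counts that follow, and further calls were lost in those fits, as given above. Of 71 called differences of members, given 663 values under the remaining settings, 639 kept direction and call, 24 lost the call and 0 turned. Of 200 values of 22 uncalled differences, 19 became called and 2 turned. Those 2 came from restoring the array left out (all 36 arrays): Smc1b at -0.78 and Stag3 at -0.72 for TS24 minus TS13 in XX germ cells. With all 36 arrays the members called went from 3 to 1 for XY minus XX germ cells at TS34, from 0 to 1 for TS24 minus TS13 and from 5 to 3 for TS34 minus TS13 in XX germ cells, from 1 to 0 and from 2 to 1 for TS34 minus TS13 in XX and XY supporting cells, and from 2 to 1 for the change of the germ sex difference. TS24 minus TS13 in XX germ cells also went from 0 to 1 with the filter at the 50th percentile, the mean over probe sets and the intensity trend. In XY germ cells TS34 minus TS24 went from 0 to 1 with median centring and with quantile normalization, and TS34 minus TS13 from 1 to 2 with quantile normalization, which took XY supporting cells from 2 to 0. With the groups compared alone, counts went from 4 to 2 (TS34 minus TS24 in XX germ cells), 0 to 1 (TS24 minus TS13 in XY germ cells), 0 to 1 and 4 to 2 (XY minus XX supporting cells at TS13 and TS24), 1 to 0 and 2 to 4 (TS34 minus TS13 in XX and XY supporting cells). Without the 2 XX supporting arrays of raised germ markers, a setting chosen after seeing the data, TS34 minus TS13 in XX supporting cells went from 1 to 0. Apart from the array left out, whose markers opposed its label, the cause was not tested.

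Leaving out 1 array gave 0 to 0, 0 to 1 and 3 to 3 members for the germ sex difference at TS13, TS24 and TS34, and 1 to 2 for its change. For TS24 minus TS13, TS34 minus TS24 and TS34 minus TS13 it gave 0 to 1, 1 to 4 and 4 to 5 in XX germ cells and 0 to 0, 0 to 0 and 1 to 1 in XY. It gave 7 to 8 for germ minus supporting cells, 0 to 0, 3 to 4 and 2 to 3 for the supporting sex difference at the 3 stages, and 0 to 1 for TS34 minus TS13 in XX and in XY supporting cells.

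With the replicate number as a block, Smc1b became called for TS34 minus TS24 in XX germ cells (0.91, adjusted p = 0.0338), taking that count from 4 to 5. No other member's call changed with the block, and 11 of 35 arrays correlated best with their own number.

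Counts over all genes moved by over 1.5 times as follows. For XY minus XX germ cells at TS24, 344 genes became 767 with all 36 arrays, 729 with median centring and 732 with quantile normalization. With all 36 arrays, TS24 minus TS13 in XX germ cells went from 213 to 352, the 3 XY germ stage comparisons from 263 to 106, 480 to 202 and 1428 to 947, XY minus XX supporting cells at TS13 from 663 to 397, and the change of the germ sex difference from 649 to 286. With the groups compared alone, XY minus XX germ cells at TS13 went from 5 to 14, the 2 XX germ steps from 213 to 31 and 1559 to 941, XY minus XX supporting cells at TS34 from 2456 to 4270, and TS34 minus TS13 from 815 to 1326 in XX and 1761 to 2771 in XY supporting cells. Without single arrays, the lowest counts were 88 without XX replicate 2 and 143 without XY replicate 2 for XY minus XX germ cells at TS24, 1198 (from 1845) without XX replicate 3 at TS34, which also took the change of the sex difference to 418, and 9 at TS13 without XY replicate 2. For TS34 minus TS24 in XX germ cells they ran from 530 without replicate 3 to 2565 without replicate 1 at TS34, with 598 without replicate 2 at TS24 and 876 without replicate 2 at TS34, and for TS24 minus TS13 they fell to 50 without replicate 2 at TS24 and 126 without replicate 3 at TS13. For XY germ cells they fell to 148 (TS24 minus TS13, without replicate 2 at TS24), 173 and 941 (both intervals from TS13, without its replicate 3), and 313, 283 and 241 (TS34 minus TS24, without replicate 2 or 3 at TS24 or 1 at TS34), and in XY supporting cells to 1129 without replicate 3 at TS34. Low signal limits Rad21l, whose values lie near the array background.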
